A study of Mus musculus with 6 samples.

Results

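The subject is a set of 10 mouse genes that encode adaptor proteins of the Hippo pathway: the angiomotins Amot, Amotl1 and Amotl2, the WW and C2 domain proteins Wwc1 and Wwc2, the LIM domain proteins Ajuba, Limd1 and Wtip, and the FERM domain proteins Frmd6 and Ptpn14. They were chosen by gene symbol from 19505 symbols on the array, with earlier results of these data known, and all 10 had a row. Where a gene had several rows, the row with the highest mean signal was read, which applied to Amot alone, with 2 rows. RNA was taken from Müllerian ducts, which give rise to the oviducts, uterus and upper vagina, of 6 mouse embryos at E17.5, a stage shortly before birth, and each embryo was measured on its own Affymetrix array. The 3 mutant embryos were Lats1f/f, Lats2f/f, Amhr2cre/+, and the 3 control embryos were Lats1f/f, Lats2f/f with no Cre allele. Floxed alleles of the kinase genes Lats1 and Lats2 were thus shared by both groups, and the groups differed in Cre recombinase placed in Amhr2, the gene of the anti-Müllerian hormone receptor. In the duct Amhr2 is active in the mesenchyme, so the duct epithelium is not a target of this Cre, and RNA of whole ducts mixes both layers. The question of the comparison is what loss of these kinases does to the developing duct.

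Hippo signalling is a kinase cascade in which MST kinases activate LATS kinases, and LATS kinases phosphorylate the coactivators YAP and TAZ so that they stay in the cytoplasm. When LATS activity is low, YAP and TAZ enter the nucleus and act through TEAD factors. Scaffold proteins set where and how strongly this happens. Angiomotins bind YAP and tight junction proteins, WWC proteins promote activation of LATS together with merlin, and the Ajuba proteins bind LATS and hold it inactive at junctions under tension. FRMD6 is the mammalian relative of the fly protein Expanded, and PTPN14 is a phosphatase that binds YAP.

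Signals are log2 values, so a difference of 1 is a doubling of signal, and signals of different genes are not compared because each row has its own probes. Array medians lay between 6.869 and 6.952. The median of the background probes of an array, from 5.349 to 5.88, is called background here, and all 10 genes lay above it on all 6 arrays. Of 14 Müllerian duct markers 12 were above background on some array, and Lhx1 and Hoxa13 were below it on all 6. Amhr2 was at 6.92, 7.52 and 6.54 in mutant ducts and at 10.88, 10.51 and 10.80 in control ducts. Lats1 was at 11.12, 11.77 and 11.60 in mutant ducts and at 12.51, 12.13 and 12.20 in control ducts (limma adjusted p = 0.0958), and the difference of Lats2 was 0.22 (adjusted p = 0.684). Positions of the Lats1 and Lats2 probes against the floxed exons were not analysed here, so neither value is a check of the deletion. Control 3 stood apart, with urothelial markers at a mean log2 signal of 10.53, against 6.30 to 6.35 on the mutant arrays and 6.08 and 6.40 on the other control arrays. In whole ducts, more cells of a type and more RNA per cell cannot be told apart.

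Among the 10 scaffold genes, Amotl2, Wwc2 and Ajuba rose in mutant ducts and none fell. The rises were 7.10-fold for Amotl2, 2.72-fold for Wwc2 and 2.66-fold for Ajuba, with limma p-values adjusted over all 22206 tested rows of 0.000312, 0.0026 and 0.00283. Over all tested rows 2.59% rose by the same test and 0.666% fell. The other 7 genes were not called, and no gene was lower at an unadjusted p under 0.05, whereas 7 of 10 were higher at that level. Over all tested rows 8.49% were higher and 6.81% were lower at an unadjusted p under 0.05. Each of the 3 that rose comes from a different family, and each had relatives that were not called. The median log2 fold change of the 10 genes was 0.72, against -0.01 over all tested rows. All mutant arrays lay above all control arrays for 6 of the 10 genes, Amot, Amotl2, Wwc2, Ajuba, Wtip and Ptpn14, and this held for 10.9% of all rows. For none of the 10 did all mutant arrays lie below all control arrays, against 10.2% of all rows. The 10 genes were chosen with earlier results of these data known. The shares and the median over all rows are thus given for scale and are no test of the set.

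**Figure D1:**
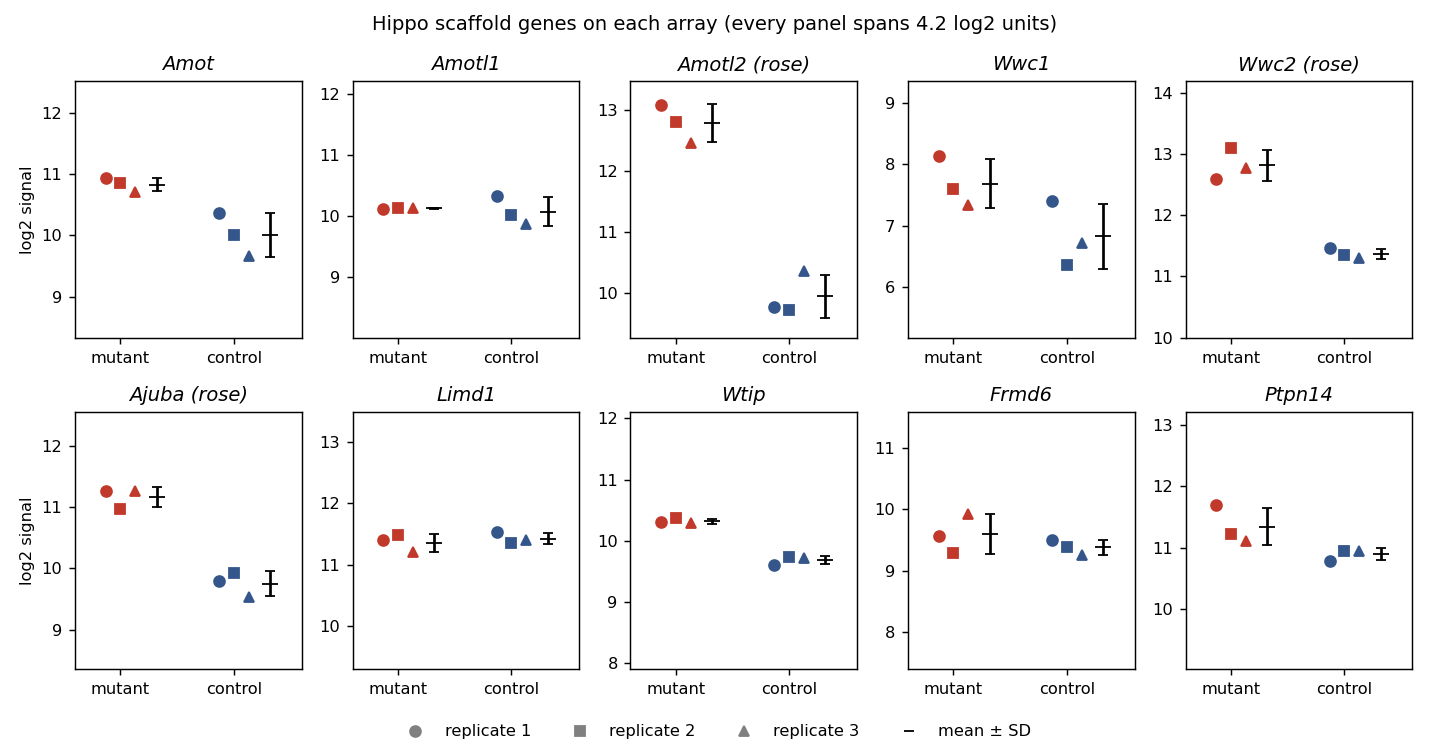
Log2 signal of each of the 10 scaffold genes on every array, with mutant arrays (red) left of control arrays (blue), the replicate number shown by the marker shape, and the mean ± SD in black beside each group. All panels span the same number of log2 units. The groups are far apart for Amotl2 (mutant 12.46 to 13.08, control 9.72 to 10.36), Wwc2 and Ajuba, and they overlap for Amotl1, Wwc1, Limd1 and Frmd6.

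The windows around the start sites of these genes were read for the core letters that TEAD factors bind, CATTCC, or GGAATG on the other strand. Each window, from RefSeq on build GRCm38.p6, held 250 bases before and 50 bases after the start of a gene, and windows were found for 9 of the 10 genes, not for Limd1. The core was present in 5 of the 9 windows, those of Amotl2, Wwc2, Ajuba, Wtip and Ptpn14, and it was absent from those of Amot, Amotl1, Wwc1 and Frmd6. Among 32851 windows of this length in the mouse, 14.7% held it, and 1.36% held it at least 2 times, as did 3 of the 9. All 3 genes that rose had it, against 2 of the 6 with a window that were not called. Genes that rose on the array as a whole did not hold it more often: 43 of 413 windows (10.4%) of genes that rose had the core, against 13.3% of 15691 windows of genes tested. At least 2 cores were in 1.69% of windows of genes that rose and in 1.2% of those of genes tested. The core was chosen with the changes of these genes known, a match is not a binding site, and no test was made. The base composition of the 9 windows ranged from 46.0% to 78.3% G and C. The AP-1 letters TGANTCA, which read the same on both strands and share no match with the core, were in none of the 9 windows and in 7.81% of all windows. They were in 10.2% of windows of genes that rose and in 7.27% of those of genes tested. Windows of the 3 genes that rose are given to show how the cores are placed, with Wtip for its 4 cores and Amotl1 as an angiomotin without any. They run 5′ to 3′ on the strand of the gene, with the core in capitals. They lie at chr9:102717554-102717853 on the plus strand for Amotl2, chr8:47990495-47990794 on the minus strand for Wwc2, chr14:54577612-54577911 on the minus strand for Ajuba, chr7:34133219-34133518 on the minus strand for Wtip and chr9:14614951-14615250 on the minus strand for Amotl1.
Amotl2: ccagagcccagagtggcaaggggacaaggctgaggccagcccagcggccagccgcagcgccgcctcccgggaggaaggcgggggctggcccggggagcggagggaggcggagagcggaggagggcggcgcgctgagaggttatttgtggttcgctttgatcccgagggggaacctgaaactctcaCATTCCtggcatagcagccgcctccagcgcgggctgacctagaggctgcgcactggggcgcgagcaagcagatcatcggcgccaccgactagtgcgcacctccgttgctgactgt
Wwc2: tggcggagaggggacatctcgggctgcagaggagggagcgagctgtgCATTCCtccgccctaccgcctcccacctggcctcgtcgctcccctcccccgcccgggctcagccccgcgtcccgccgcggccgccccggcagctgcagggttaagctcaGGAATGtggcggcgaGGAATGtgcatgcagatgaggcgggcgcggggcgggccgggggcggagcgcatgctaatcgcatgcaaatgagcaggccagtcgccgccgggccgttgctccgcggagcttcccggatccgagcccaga
Ajuba: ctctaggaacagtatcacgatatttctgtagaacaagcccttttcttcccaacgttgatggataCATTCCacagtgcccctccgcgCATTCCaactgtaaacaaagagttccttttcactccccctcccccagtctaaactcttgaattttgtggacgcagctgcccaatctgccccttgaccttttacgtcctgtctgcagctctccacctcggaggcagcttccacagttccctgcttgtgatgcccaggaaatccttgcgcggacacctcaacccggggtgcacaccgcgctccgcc
Wtip: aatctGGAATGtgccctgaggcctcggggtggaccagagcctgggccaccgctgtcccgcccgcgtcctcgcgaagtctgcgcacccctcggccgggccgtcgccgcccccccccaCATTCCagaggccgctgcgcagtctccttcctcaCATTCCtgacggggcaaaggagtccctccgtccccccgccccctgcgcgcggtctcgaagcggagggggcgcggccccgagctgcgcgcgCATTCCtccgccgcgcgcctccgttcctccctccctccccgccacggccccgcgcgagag
Amotl1: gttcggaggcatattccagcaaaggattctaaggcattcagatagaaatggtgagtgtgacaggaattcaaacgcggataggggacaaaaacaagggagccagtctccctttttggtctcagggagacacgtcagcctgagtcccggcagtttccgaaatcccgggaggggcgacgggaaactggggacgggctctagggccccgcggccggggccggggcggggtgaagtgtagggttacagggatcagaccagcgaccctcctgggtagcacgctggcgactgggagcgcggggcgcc

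The Amotl2 core began 65 bases before the start site. In the Wwc2 window a core lay 203 bases before it, and a pair of cores on the other strand lay close together at 94 and 79 bases. The Ajuba cores also lay close together, at 186 and 164 bases. Wtip had cores at 245, 134, 100 and 10 bases before the start, and the core of Ptpn14 lay at 146 bases. All of these cores were upstream of the start site.

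Angiomotins bind YAP through motifs that its WW domains recognise, and the 3 genes differed in their shifts. Amotl2, angiomotin-like 2, which links cadherin junctions to actin and is known from human cells as a target gene of YAP and TEAD, had log2 signals of 13.08, 12.79 and 12.46 in mutant ducts and 9.77, 9.72 and 10.36 in control ducts. The lowest mutant array was thus more than 2 log2 units above the highest control array, which was control 3. Its log2 fold change was 2.83 ± 0.23 (SE), with a 95% interval from 2.30 to 3.35, and 99.8% of all tested rows had a lower one. By p it ranked 40 among 22206 rows. Without control 3, the array with high urothelial markers, the log2 fold change was 3.03 (adjusted p = 0.000274).

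Amot, angiomotin itself, first known as a protein of endothelial cells that binds angiostatin, was at 10.93, 10.85 and 10.71 in mutant ducts and at 10.37, 10 and 9.66 in control ducts. The groups did not overlap, and the control arrays were spread more widely, with an SD of 0.35 against 0.11 in mutant ducts. The difference was 0.82 ± 0.21 (SE) on the log2 scale, a 1.76-fold difference, with an interval from 0.35 to 1.28 and an adjusted p of 0.0732, which missed the threshold of 0.05. The second row of the gene was at 10.54, 10.55 and 10.42 in mutant ducts and 10.09, 9.95 and 9.77 in control ducts. It also separated the groups, with a smaller difference of 0.57 ± 0.16 (SE) and an adjusted p of 0.118. Amot passed once the dimmer rows, those under the array-wide median, were removed (adjusted p = 0.0336), and likewise under a trended and robust prior (0.0329). With control 3, its lowest array, left out, the log2 fold change was 0.64 (adjusted p = 0.17).

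Amotl1, angiomotin-like 1, which sits at tight junctions, gave the flattest pattern of the family. Its mutant arrays read 10.12, 10.13 and 10.14, and its control arrays read 10.33, 10.02 and 9.87, on either side of them. The log2 fold change was 0.06 ± 0.17 (SE), with an interval from -0.34 to 0.45 (adjusted p = 0.921), and the sign turned without control 3 (-0.05). The Amot estimate of 0.82 lies above this interval. Amot was not called, however, and its own interval, from 0.35 to 1.28, overlaps that of Amotl1.

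WWC proteins, of which WWC1 is also called KIBRA, carry WW domains that bind LATS and angiomotins. Wwc2 was at 12.59, 13.09 and 12.77 in mutant ducts and at 11.46, 11.35 and 11.30 in control ducts. Every mutant array was more than 1 log2 unit above every control array, and the control arrays were close to each other, with an SD of 0.09. Wwc2 rose by 1.44 ± 0.18 (SE) on the log2 scale, with an interval from 1.04 to 1.85, and stood at rank 154 of all rows by p. Wwc1 was at 8.13, 7.59 and 7.34 in mutant ducts and at 7.40, 6.36 and 6.72 in control ducts. Control 1 lay above mutant 3, so the groups overlapped. The log2 fold change of 0.86 ± 0.29 (SE) had the widest interval of the 10 genes, from 0.20 to 1.51 (adjusted p = 0.187). Its signal was dim: the median of the negative-control rows of the same array, between 7.09 and 7.406, was exceeded on 3 of 3 mutant arrays and on 0 of 3 control arrays.

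Ajuba family proteins carry LIM domains and move between adhesions, junctions and the nucleus. Ajuba was at 11.26, 10.97 and 11.26 in mutant ducts and at 9.79, 9.93 and 9.53 in control ducts. The mutant arrays all exceeded the highest control array by more than 1 log2 unit. Ajuba rose by 1.41 ± 0.18 (SE) on the log2 scale, with an interval from 1.01 to 1.81. Wtip, named for its interaction with WT1, was at 10.30, 10.37 and 10.29 in mutant ducts and at 9.61, 9.74 and 9.72 in control ducts. Replicates were tight, with an SD of 0.04 in mutant and 0.07 in control ducts, and the groups did not overlap. The log2 fold change was nonetheless below the smallest that passed anywhere on the array, at 0.63 ± 0.15 (SE) against 0.69, with an adjusted p of 0.0633. Wtip passed without the rows under the 25th percentile of signal (adjusted p = 0.0446), under the median filter (0.0226) and with the trended prior (0.0373). Limd1, which also serves in microRNA silencing and in oxygen sensing, was at 11.40, 11.48 and 11.20 in mutant ducts and at 11.53, 11.35 and 11.40 in control ducts. The groups overlapped, and the log2 fold change of -0.07 ± 0.16 (SE) had an interval from -0.43 to 0.30. Its sign turned without mutant 3 (0.01).

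FERM domain members showed the smallest shifts apart from Amotl1 and Limd1. Ptpn14 was at 11.69, 11.23 and 11.11 in mutant ducts and at 10.78, 10.94 and 10.95 in control ducts. The groups did not overlap but were close, with mutant 1 well above the others. The log2 fold change was 0.45 ± 0.19 (SE), with an interval from 0.02 to 0.89 (adjusted p = 0.302), and it was 0.28 without mutant 1. Frmd6 was at 9.57, 9.29 and 9.93 in mutant ducts and at 9.50, 9.38 and 9.25 in control ducts. These arrays interleaved, and the log2 fold change was 0.22 ± 0.20 (SE), with an interval from -0.23 to 0.67 (adjusted p = 0.671). It was 0.05 without mutant 3.

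**Figure D2:**
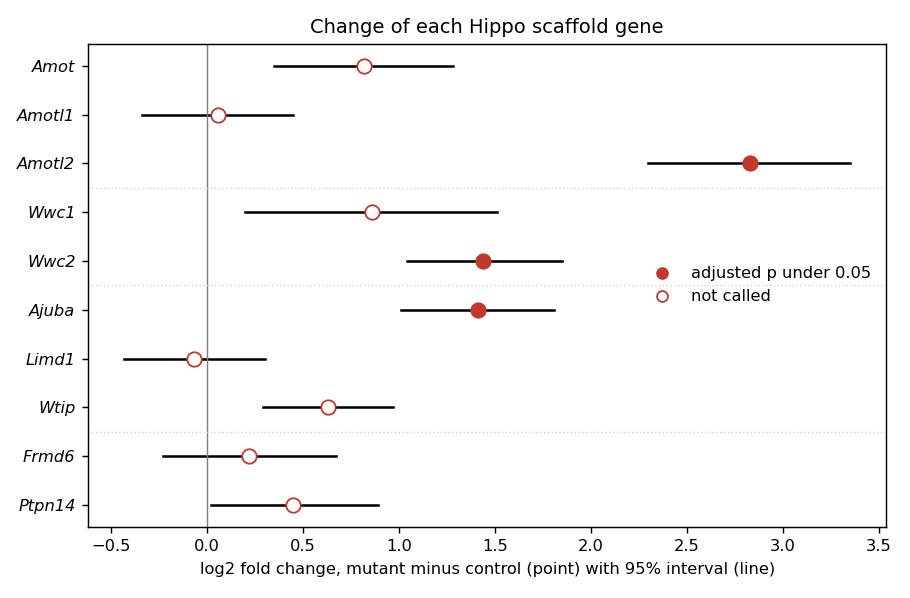
Log2 fold change of each gene, mutant minus control, as a point with its 95% limma interval as a line, and filled points for an adjusted p under 0.05. Dotted lines divide the families. The intervals of Amotl1, Limd1 and Frmd6 cross 0, those of Amot, Wwc1, Wtip and Ptpn14 lie above 0 without passing the adjusted threshold, and that of Amotl2 (2.30 to 3.35) lies above all the others.

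**Figure D3:**
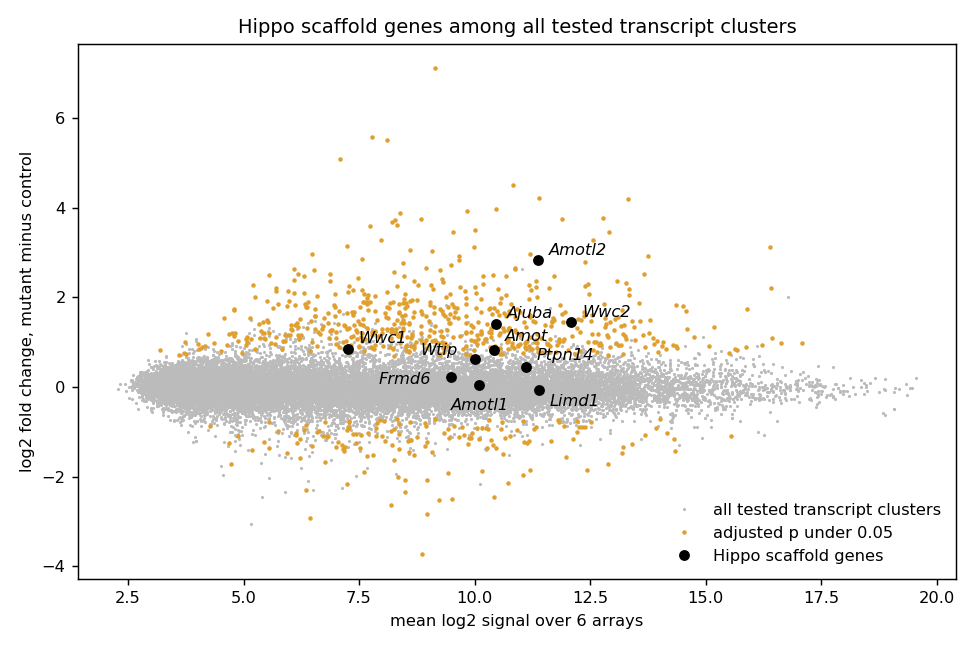
Log2 fold change, mutant minus control, against mean log2 signal over 6 arrays for all 22206 tested rows (grey), those with an adjusted p under 0.05 (orange) and the 10 scaffold genes (black). Of all rows, 99.8% had a lower log2 fold change than Amotl2, 98.8% a lower one than Wwc2 and 98.7% a lower one than Ajuba, and Amotl1, Limd1 and Frmd6 lie inside the grey cloud.

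Whether related genes changed unequally was asked within each array, by the log2 signal of a gene minus that of its relative, compared between groups in 8 pairs. Amotl2 minus Amotl1 was 2.65 ± 0.32 in mutant ducts and -0.13 ± 0.55 in control ducts (SD, n = 3 each), so Amotl2 gained 2.77 log2 units on Amotl1. It gained 2.01 on Amot, whose difference to Amotl2 was 1.95 ± 0.20 in mutant and -0.06 ± 0.68 in control ducts (SD, n = 3 each). Amot in turn gained 0.76 on Amotl1. In each of these 3 differences all mutant arrays lay above all control arrays. In the LIM family Ajuba minus Limd1 was -0.20 ± 0.29 in mutant and -1.68 ± 0.23 in control ducts (SD, n = 3 each), a gain of 1.48. Ajuba gained 0.78 on Wtip, and Wtip gained 0.70 on Limd1. The groups did not overlap in these 6 pairs. The share of other gene pairs without overlap was not computed. Pairs of a family share genes, and each gain follows from the log2 fold changes given above. The 6 pairs are thus not separate evidence. For Wwc2 minus Wwc1 the values overlapped, at 5.13 ± 0.57 in mutant and 4.54 ± 0.46 in control ducts (SD, n = 3 each), so an unequal change of these relatives was not shown. This difference of 0.59 was 0.92 without mutant 1 and 0.35 without control 1. The values of Ptpn14 minus Frmd6 overlapped too, with a gain of 0.23 that was 0.05 without mutant 1, 0.14 without mutant 2, 0.52 without mutant 3 and 0.12 without control 1. In an exact two-sided permutation test the 6 pairs without overlap had p = 0.1, which is the smallest p that 3 against 3 arrays allow, and the value adjusted over the 8 pairs was 0.133. This test could not have passed 0.05 for any pair, so the sizes and SDs are given as the comparison.

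**Figure D4:**
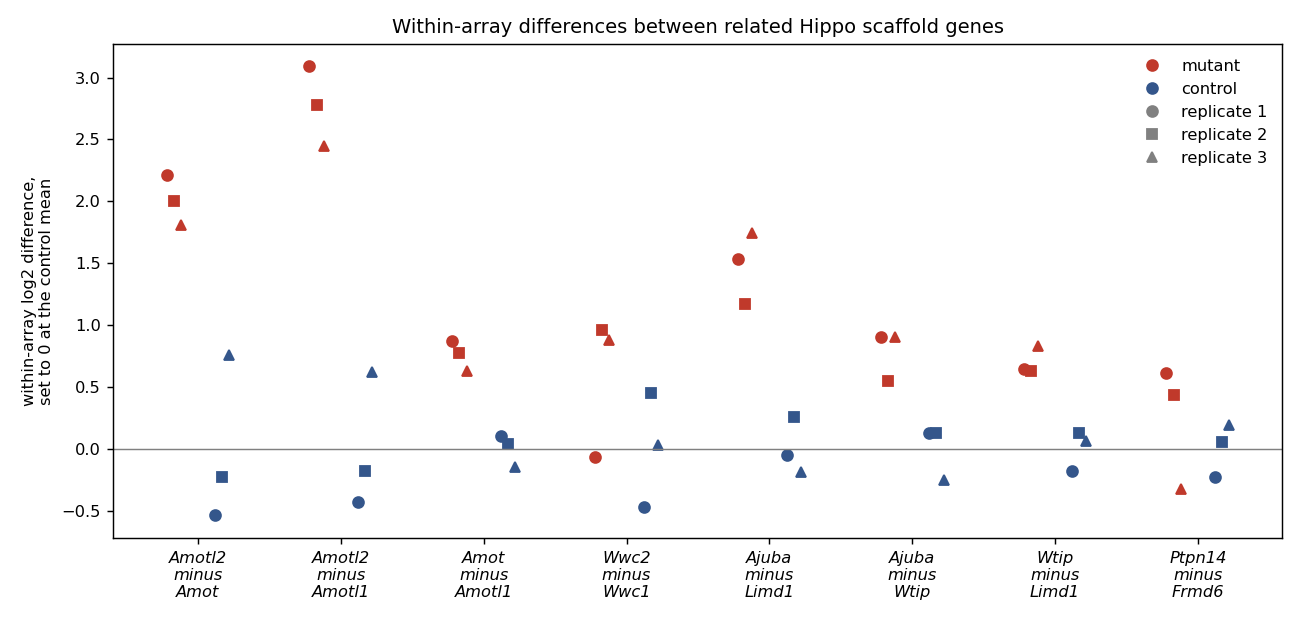
Within-array log2 difference between related scaffold genes on each mutant (red, left of each pair) and control (blue) array, shifted so that the control mean is 0, with marker shape for the replicate number. Mutant and control arrays separate in the 3 angiomotin pairs and the 3 LIM pairs, with the widest gap for Amotl2 minus Amotl1, and mix for Wwc2 minus Wwc1 and Ptpn14 minus Frmd6.

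The calls of the 3 genes that rose held with each array left out in turn. Their adjusted p-values then lay between 0.000274 and 0.00283 for Amotl2, between 0.00815 and 0.0142 for Wwc2 and between 0.00801 and 0.0187 for Ajuba. None of the other 7 passed in any of these 6 fits. The difference of Wtip was the steadiest of those that missed the threshold, from 0.59 to 0.65, whereas Wwc1 ranged from 0.62 to 1.14 and Amot from 0.64 to 1.00.

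**Figure D5:**
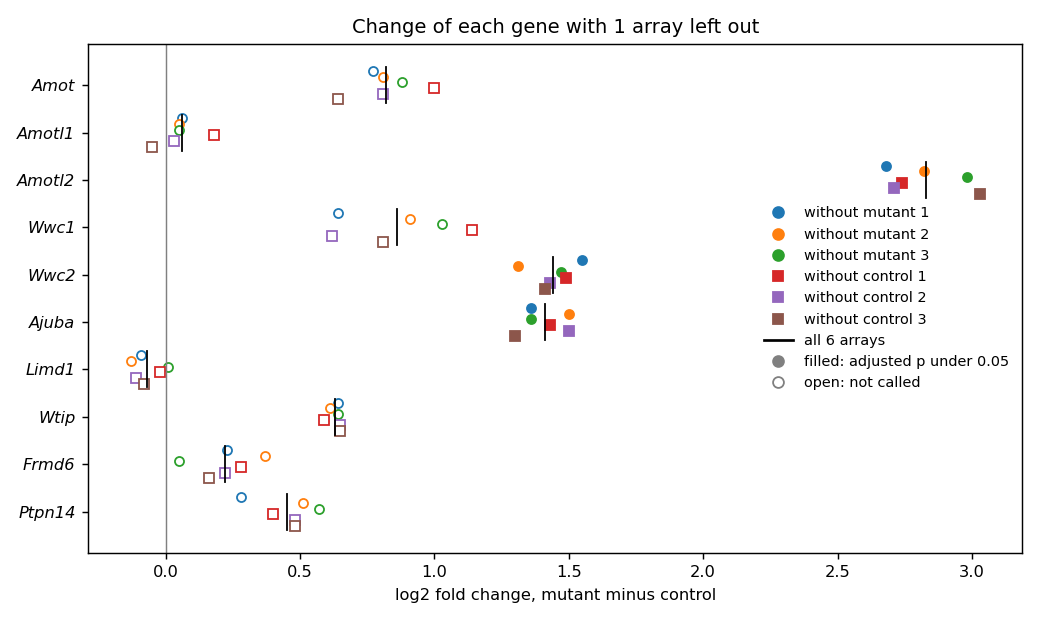
Log2 fold change, mutant minus control, of each gene when 1 array was left out, with circles for mutant and squares for control arrays left out, filled symbols for an adjusted p under 0.05 and a black bar for all 6 arrays. All symbols of Amotl2, Wwc2 and Ajuba are filled, and all those of the other 7 genes are open.

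The genes the scaffolds work with were read from the same fit, in which 2.59% of all rows rose and 0.666% fell, and 8.49% were higher and 6.81% lower at an unadjusted p under 0.05. Of 26 other Hippo pathway genes, 2 rose and 0 fell in limma's test, with 4 higher and 3 lower at an unadjusted p under 0.05 and a median log2 fold change of 0.09. Vgll3, a cofactor of TEAD, rose by 3.50 ± 0.26 (SE), and Wwtr1, which encodes TAZ, by 0.99 ± 0.20. The call of Wwtr1 was lost without mutant 1 (adjusted p = 0.101), mutant 3 (0.0992), control 1 (0.114) or control 3 (0.0532), leaving 1 gene. Merlin (Nf2), a partner of the WWC and angiomotin proteins, had a log2 fold change of 0.19, and Yap1, which angiomotins and PTPN14 bind, of -0.25. Ptpn21, the closest relative of Ptpn14, had 0.09. Vgll4 was at 0.70 (adjusted p = 0.0508), and the protocadherin Fat4 was at -0.96 (0.0584).

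Target genes of YAP and TAZ, from a list without the scaffold genes, rose in 9 of 19 cases and fell in 0, with 12 higher and 0 lower at an unadjusted p under 0.05 and a median of 0.65. The matricellular genes Ccn1 and Ccn2 had log2 fold changes of 4.18 and 3.76, above the 2.83 of Amotl2, and Crim1 (2.31) and Igfbp3 (2.06) stood between Amotl2 and the pair of Wwc2 and Ajuba. The list was chosen with these rises known and is no independent evidence of their direction.

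Angiomotins and WWC proteins bind tight junction and polarity proteins. Of 20 measured genes of this kind 1 rose, a count near the 2.59% of all rows that rose, and 0 fell, with 3 higher and 3 lower at an unadjusted p under 0.05 and a median of -0.01. The gene that rose was Synpo, synaptopodin, an actin-binding partner of WWC1 known from podocytes, with 1.24 ± 0.26 (SE, adjusted p = 0.0358). That call held only without control 2 (0.0238) among the 6 fits with an array left out and was lost without mutant 1 (0.0841), mutant 2 (0.118), mutant 3 (0.0734), control 1 (0.124) or control 3 (0.078). The aPKC gene Prkci, whose product binds the polarity complex, was at 0.73 (adjusted p = 0.0537), its relative Prkcz at -0.57 (0.175) and occludin (Ocln) at -0.86 (0.164).

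Enzymes that mark angiomotins or other scaffolds for turnover were read because protein levels can change without RNA. Of 11 genes 1 rose and 0 fell, and no other was past an unadjusted p of 0.05 in either direction, with a median of 0.08. Nedd4l, a ubiquitin ligase of the NEDD4 family, had 0.89 ± 0.20 (SE, adjusted p = 0.0446), a call kept without mutant 3 (0.0221) and lost without mutant 1 (0.165), mutant 2 (0.136), control 1 (0.11), control 2 (0.139) or control 3 (0.1). The tankyrases Tnks (0.31) and Tnks2 (0.08) and the ligase Rnf146 (-0.11), which together promote turnover of angiomotins, were not called. Protein was not measured.

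Of 17 zyxin family genes and partners of the Ajuba proteins, 3 rose and 0 fell, with 5 higher and 0 lower at an unadjusted p under 0.05 and a median of 0.26. Vinculin (Vcl), which strengthens junctions and focal adhesions under load, rose by 1.47 ± 0.19 (SE), and zyxin (Zyx), a LIM protein of stress fibres, by 0.79 ± 0.15. Egln1, the oxygen-sensing prolyl hydroxylase that LIMD1 binds, rose by 0.99 ± 0.17. Of these, Vcl passed in all 6 fits with an array left out. Egln1 was lost without mutant 1 (adjusted p = 0.0586) or control 1 (0.0657), so that 1 gene remained past the threshold in these fits, and Zyx was lost in all 6, with adjusted p from 0.0574 to 0.0923. Trip6, a zyxin relative that binds LATS, was at -0.25.

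FERM domain relatives of Frmd6 and Ptpn14 had 1 rise and 0 falls among 12, with 3 higher and 1 lower at an unadjusted p under 0.05 and a median of 0.11. Ezrin (Ezr), which ties membrane proteins to actin, rose by 1.36 ± 0.26 (SE, adjusted p = 0.0241). The call was lost without mutant 1 (0.0979), mutant 2 (0.0913) or control 1 (0.0671), and without control 3 there were 2 rises. Moesin (Msn) was at 0.77 (adjusted p = 0.0737) and radixin (Rdx) at 0.03.

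Marker lists of the duct and of other cells show what else moved with genotype. Of the 14 Müllerian duct markers 1 rose and 1 fell, with 2 higher and 6 lower at an unadjusted p under 0.05, a median of -0.40, and means of 8.99 to 9.69 on mutant and 9.67 to 9.97 on control arrays. The fall was that of Amhr2, which carries the Cre allele in mutant ducts only, so an effect of that allele on its own signal cannot be told apart. The rise was that of Lhx1 (1.20, adjusted p = 0.0358), which was below background on every array. Its call was kept without control 1 (0.0311) and lost without any other array (0.069 to 0.12). Hoxa11 was at -1.09 (adjusted p = 0.0557), Emx2 at -0.71 (0.174), Osr2 at -0.69 (0.224) and Wnt4 at 1.00 (0.053). Without mutant 2, 3 of these markers fell. Macrophage markers rose in 6 of 9 cases and fell in 0 (0 also at an unadjusted p under 0.05), with mean log2 signals of 10.36 to 10.65 on mutant and 9.24 to 9.41 on control arrays, and none was below background throughout. Immediate early and stress genes, which handling can induce, rose in 5 of 12 cases and fell in 0 (0 also unadjusted), with means of 9.53 to 9.59 on mutant and 8.14 to 8.69 on control arrays. Of these, 3 rose without mutant 1 or without control 2. Endothelial markers, of interest for the angiomotins, rose in 2 of 9 cases and fell in 0. At an unadjusted p under 0.05, 2 were higher and 1 was lower, and their median was -0.21. The rises were those of Kdr and Flt1, with Flt1 lost without mutant 1, mutant 2, control 1 or control 2 (adjusted p from 0.0542 to 0.0965). Means of the endothelial list spanned 10.61 to 10.81 on mutant and 10.57 to 10.68 on control arrays. Epithelial markers had 0 calls among 10 (0 also unadjusted), with means of 8.20 to 9.03 on mutant and 8.28 to 9.45 on control arrays. Smooth muscle markers had 1 rise and 1 fall among 10, with 2 higher and 2 lower at an unadjusted p under 0.05 and a median of -0.23, and their means ranged from 9.78 to 10.23 on mutant arrays and from 8.77 in control 1 to 11.68 in control 3. Tagln, an actin-binding protein of smooth muscle also called transgelin, rose by 2.92 ± 0.30 (SE, adjusted p = 0.00108), and Synpo2, a Z-disc and stress fibre protein, fell by 2.64 ± 0.33 on the log2 scale (SE, adjusted p = 0.00286). Both passed in all 6 fits with an array left out, and without control 3 there were 3 rises. Mesothelial markers had 1 rise among 6, with means of 10.63 to 10.93 on mutant and 10.45 to 10.80 on control arrays. The means of the macrophage and stress lists thus separated the groups, as Amotl2, Wwc2 and Ajuba did. Those of YAP and TAZ targets did too (10.84 to 10.98 on mutant, 9.55 to 9.66 on control arrays). Smaller gaps separated the means of other Hippo genes, turnover enzymes (10.92 to 10.98 against 10.84 to 10.88), zyxin family genes and Ajuba partners, and FERM relatives. Means of the other lists overlapped. How often means of other lists of genes would separate the groups was not computed. Of single rows, 10.9% had all mutant arrays above all control arrays. The part of the macrophage and stress lists, and of the duct and smooth muscle genes that changed, in the changes of the scaffold genes was not tested.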

How the data were processed

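Expression was measured in Müllerian ducts of 3 mutant and 3 control embryos, 1 array each. The authors deposited a table of log2 signals per probe set. Transcriptome Analysis Console 4.0 is named, per the submitters' processing notes. Not given in the sources used here are the summarisation of probes, the normalization of arrays and the genome build. No further normalization was applied to the deposited log2 values. Of the rows, 22206 transcript clusters were tested, 19572 of them with 1 symbol in the platform's probe table, and control rows were left out. Signals that were normalized between arrays show changes relative to the typical gene, and probes of related genes can cross-hybridise, which was not tested.

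Groups follow the genotype in the labels, which call the samples biological replicates. All rows were fitted with limma 3.58.1 in R 4.3.3 (lmFit and eBayes, genotype as the only term, two-sided, Benjamini-Hochberg over all rows, threshold 0.05, intervals at 95%). The members, the lists, the motif and the tests were chosen with earlier results of these data known. The text names all 10 members, up to 4 genes of each list by smallest p, and Lats1, Lats2, Yap1, Wwtr1 and Amhr2. Named outside this rule, after their values were seen, were Nf2, Ptpn21, Tnks2, Rnf146, Trip6, Rdx, Emx2, Osr2 and Hoxa13. Of 192 list entries 183 had a row, and the other 9 were not analysed here. Target genes left the members out.

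Windows of 250 bases before and 50 after a start site came from RefSeq, build GRCm38.p6, and were searched on both strands. The fit was tested on simulated data, where it called 40% of rows changed by 1 log2 unit and 93% of rows changed by 2. A gene that was not called can therefore still have changed. Alternatives were quantile normalization, a common array median, removal of dim rows (mean signal under the 25th percentile, or under the median), a prior both trended and robust, the replicate number as a block, a threshold of 0.01, the mean of a gene's rows, and each array left out in turn. The number of arrays limits the precision. Plots used matplotlib 3.10.9 with Python 3.11.15.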

Additional observations from a re-analysis of the deposited data

How the results depend on the processing

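Of 121 alternative values of the 10 scaffold genes, 114 kept their direction and their side of the threshold, 5 came to pass it (Wtip in 3 fits and Amot in 2) and 2 changed sign. These were Limd1 without mutant 3 (0.01, in a range from -0.13 with 1 array left out) and Amotl1 without control 3 (-0.05, in a range up to 0.18). The rises of Amotl2, Wwc2 and Ajuba passed in every alternative run, the threshold of 0.01 included. Without rows under the median signal, where fewer rows share the adjustment, and with the trended and robust prior 5 scaffold genes rose in place of 3. The median of the 10 lay between 0.64 and 0.79 over the alternatives. The 8 differences between relatives were recomputed only with quantile normalization and with each array left out. Each kept its sign, and with 1 array left out Wwc2 minus Wwc1 ranged from 0.35 to 0.92 and Ptpn14 minus Frmd6 from 0.05 to 0.52.

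Deviations from the group means were nearly uncorrelated between same-numbered mutant and control arrays (correlations of 0.01, 0.04 and 0.00). Mutant 2 was closest to control 2 among the control arrays, and mutants 1 and 3 were not closest to their own number. With 3 arrays a group this cannot decide whether the numbers pair the embryos, and the labels do not say so. With the replicate block 502 rows rose and 131 fell, and the same number of scaffold genes (3) rose. With that block 1 other Hippo gene, 0 turnover enzymes and 0 Müllerian duct markers rose, and 2 of these markers fell.

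Over all rows, rises ranged from 305 (without mutant 1) to 565 and falls from 55 to 132 with 1 array left out, against 575 and 148 with all arrays. At a threshold of 0.01, 260 rose and 39 fell. Falls were 257 under the median filter and 243 with the trended prior. Of the other Hippo genes, falls were 1 with quantile normalization and with the 25th percentile filter and 3 with the median filter and the trended prior. Rises of these genes were 3 with quantile normalization, a common median and the 25th percentile filter. Rises of polarity genes were 2 with a common median, with both filters and with the trended prior. Rises of FERM relatives were 2 with the median filter and the trended prior. Turnover enzymes had 0 rises with quantile normalization, and mesothelial markers 0 with the median filter. Of the duct markers 2 rose with quantile normalization, the 25th percentile filter and the trended prior, and 2 fell with both filters and the trended prior.

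With 1 array left out, rises ranged from 1 to 2 for other Hippo genes, 0 to 1 for polarity genes, 0 to 1 for turnover enzymes, 1 to 2 for zyxin family genes and Ajuba partners, 0 to 2 for FERM relatives, 0 to 1 for duct markers (falls 1 to 3), 1 to 2 for endothelial, 1 to 3 for smooth muscle and 3 to 7 for stress genes. Beyond the number of rows or arrays that an alternative removes, the cause was not tested. With 3 arrays a group, dim signals limit what can be measured. Those of Wwc1 in control ducts, for example, lay above background but under the median of the negative-control rows.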
